A study of Homo sapiens with 2 samples.

Results

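The mevalonate route from acetyl-CoA to squalene was examined through 9 enzyme genes, the last of which, SQLE, encodes the enzyme that acts on squalene. In the order of their reactions they are ACAT2, HMGCS1, MVK, PMVK, MVD, IDI1, FDPS, FDFT1 and SQLE. The members were found by Ensembl identifier, with the version suffix dropped. All 9 were present among the 57820 identifiers of the table, and all 9 were expressed, here meaning a mean of at least 1 CPM (a count scaled to library depth with the TMM factors of edgeR), as were 12886 genes in total. RNA came from HCT116, a human colorectal carcinoma cell line, with 1 library from a CREB1 knockout clone and 1 library from CREB1 wild-type cells. The knockout line is a clone grown from 1 cell after delivery of plasmid PX461, which encodes a Cas9 nickase, with sgRNAs targeting CREB1. The labels do not say whether the wild-type culture was cloned too, and both lines were kept in DMEM with fetal bovine serum, penicillin and streptomycin. CREB1, the gene targeted, encodes a factor that activates transcription from cAMP response elements.

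The mevalonate route makes the isoprene building blocks from which cells assemble squalene and then cholesterol, and its intermediates also feed protein prenylation, dolichol and ubiquinone. Most of its genes are known targets of SREBP2, a membrane-bound transcription factor that is released when sterols in the endoplasmic reticulum are low. SREBP acts at sterol response elements together with NF-Y, which binds the CCAAT box, with Sp1 and, at some promoters, with CREB.

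The libraries held 31178312 counts (knockout) and 34511071 counts (wild-type), of which the 5 highest genes took 47.1% and 48.4%. Epithelial markers marked both libraries, with summed levels of 3521 CPM in the knockout and 4019 CPM in the wild-type library over 9 genes, led by KRT8, KRT18 and KRT19, while CDX1 was at 0 in both and KRT20 and VIL1 stayed below the expression limit on average. In the knockout library the 6 fibroblast markers summed to 92 counts, nearly all from COL1A1, the 4 leukocyte markers to 3 and the 2 matched endothelial markers to 17. In the wild-type library these sums were 89, 0 and 17, and COL1A2, LUM, PTPRC, CD3E and CDH5 were at 0 in both. CREB1 itself had 499 counts in the knockout and 614 in the wild-type library (85.5% of the wild-type level), and a gene-level count cannot show the small lesions that nickases leave, so it does not check the genotype label. Neither group has a replicate, so no test was possible. Each ratio carries an exact 95% interval that covers counting error only, and differences between clones and cultures are outside it. Fewer cells making a transcript and less transcript per cell cannot be told apart in bulk RNA.

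To show what stands upstream of these genes, 250 bases before the transcription start are printed for 3 members that were lower in the knockout library (MVK, MVD and IDI1) and for PMVK, which was not. The sequences are those of RefSeq on GRCh38.p14 and run 5′ to 3′ on the strand of the gene, and of several starts the one nearest to the start of the annotated gene was taken: MVK chr12:109573544-109573793 (plus strand), MVD chr16:88663092-88663341 (minus), IDI1 chr10:1049120-1049369 (minus) and PMVK chr1:154936720-154936969 (minus). MVK, MVD and PMVK had 1 start each among the promoters used, and IDI1 had 3. The start used lay 539 bases from the annotated gene start for MVK, 272 for PMVK, 70 for MVD and 51 for IDI1. Capitals mark each CCAAT box (CCAAT, or ATTGG on the other strand) and each core of the cAMP response element (TGACG, or CGTCA on the other strand).
MVK: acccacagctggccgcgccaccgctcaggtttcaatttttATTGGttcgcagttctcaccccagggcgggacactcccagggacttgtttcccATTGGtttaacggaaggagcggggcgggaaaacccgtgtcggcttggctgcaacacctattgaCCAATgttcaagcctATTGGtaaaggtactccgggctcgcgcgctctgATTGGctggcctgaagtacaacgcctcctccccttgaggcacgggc
MVD: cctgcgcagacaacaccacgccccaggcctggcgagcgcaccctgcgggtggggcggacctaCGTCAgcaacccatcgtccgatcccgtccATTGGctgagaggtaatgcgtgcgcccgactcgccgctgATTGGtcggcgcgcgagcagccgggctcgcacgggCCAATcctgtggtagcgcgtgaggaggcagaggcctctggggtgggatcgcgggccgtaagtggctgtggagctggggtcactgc
IDI1: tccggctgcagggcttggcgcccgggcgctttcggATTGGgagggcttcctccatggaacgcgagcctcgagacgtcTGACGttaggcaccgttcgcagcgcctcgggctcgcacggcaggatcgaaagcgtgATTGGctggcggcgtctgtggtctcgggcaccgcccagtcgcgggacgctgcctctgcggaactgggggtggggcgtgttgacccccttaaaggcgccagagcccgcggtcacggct
PMVK: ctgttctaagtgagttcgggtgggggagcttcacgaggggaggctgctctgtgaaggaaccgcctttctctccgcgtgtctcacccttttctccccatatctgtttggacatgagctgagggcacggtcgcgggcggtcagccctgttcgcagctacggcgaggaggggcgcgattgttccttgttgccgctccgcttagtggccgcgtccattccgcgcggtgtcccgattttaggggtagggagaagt
The 4 sequences differ in what the capitals mark. MVK holds 5 CCAAT boxes and no cAMP core, MVD 3 boxes and 1 cAMP core, IDI1 2 boxes and 1 cAMP core, and PMVK none of either. These 4 were picked with their ratios known, so the contrast cannot link a motif to a ratio. Among members not printed, HMGCS1 (log2 ratio -0.57) held 2 boxes and no cAMP core. FDPS, the least lowered of the 8 lower genes (-0.25), held 3 boxes and 2 cAMP cores.

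Of the 9 enzyme genes, 8 were lower in the knockout library with an interval that excluded no difference, a state shared by 25.5% of expressed genes; ratios below 1, whatever their interval, made up 48.8% of expressed genes. The summed level of all 9 was 311 CPM (9930 counts) in the knockout and 439 CPM (14760 counts) in the wild-type library. The sum in the knockout library was thus 70.8% of the wild-type sum (log2 ratio -0.50, interval -0.54 to -0.46). The median log2 ratio of the 9 was -0.57, beside 0.01 over all expressed genes, and the members spanned -0.96 (SQLE) to 0.28 (PMVK). None was 2-fold lower, a call that 1.64% of expressed genes received. By a milder limit of 1.5-fold, 4 members were called lower (MVK, MVD, IDI1 and SQLE), against 5.50% of expressed genes and 3.44% of those with a mean of at least 5 CPM, as all members had. With total-count scaling the calls of MVK (-0.56) and MVD (-0.57) were lost, which left 2, and with DESeq2 size factors HMGCS1 (-0.60) was called too, which gave 5. No member was called higher at 1.5-fold or 2-fold, as 5.25% and 1.28% of expressed genes were.

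**Figure D1:**
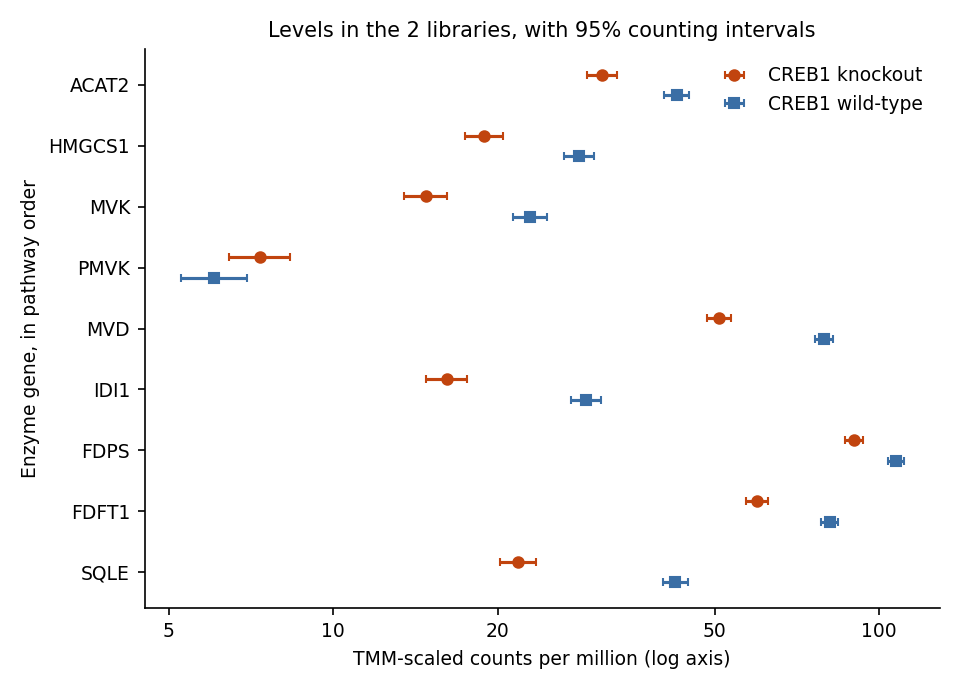
TMM-scaled CPM of the 9 enzyme genes, from the start of the route at the top to its end at the bottom, on a log axis, in the CREB1 knockout library (circles) and the CREB1 wild-type library (squares). Bars are exact Poisson 95% intervals of each count; the knockout point lies left of the wild-type point for every gene except PMVK.

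The first steps condense acetyl-CoA. ACAT2, the cytosolic thiolase that joins 2 acetyl-CoA units, had 993 counts (31.1 CPM) in the knockout and 1431 counts (42.5 CPM) in the wild-type library. HMGCS1, the cytosolic synthase that adds the next acetyl-CoA to form HMG-CoA, had 605 counts (18.9 CPM) in the knockout and 948 counts (28.2 CPM) in the wild-type library. Both were lower in the knockout library, ACAT2 with a log2 ratio of -0.45 (interval -0.57 to -0.34) and HMGCS1 with -0.57 (-0.72 to -0.43), and both missed the 1.5-fold limit. ACAT2 shares 558 bases at its end with the oppositely oriented gene TCP1, a chaperonin subunit. TCP1 had a log2 ratio of -0.32 (8211 counts in the knockout and 10804 in the wild-type library). The library kit keeps the strand, but no source used here gives the strand setting of the counting, so an exchange of reads between this pair cannot be told from the counts.

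The middle steps phosphorylate and decarboxylate mevalonate. Mevalonate kinase, MVK, had 473 counts (14.8 CPM) in the knockout and 771 counts (22.9 CPM) in the wild-type library. MVD, the decarboxylase that releases isopentenyl diphosphate, had 1627 counts (50.9 CPM) in the knockout and 2669 counts (79.3 CPM) in the wild-type library. These 2 genes were lower to nearly the same extent, MVK at 64.6% and MVD at 64.1% of the wild-type level. Phosphomevalonate kinase, PMVK, which acts between them, had 235 counts (7.35 CPM) in the knockout and 204 counts (6.06 CPM) in the wild-type library. It was the exception among the 9, at 121% of the wild-type level (log2 ratio 0.28), with an interval of 0.00 to 0.56 that only just left out no difference. With DESeq2 size factors that interval was -0.02 to 0.53 and included it. PMVK also had the fewest counts of the 9 and thus the widest interval.

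MVK lies head to head with MMAB, which encodes the adenosyltransferase of vitamin B12 metabolism, and the annotated genes overlap by 620 bases. MMAB had 286 counts in the knockout and 433 in the wild-type library, a log2 ratio of -0.52 (interval -0.75 to -0.31), and the limit on strand given for ACAT2 and TCP1 holds for this pair too. The MVK promoter printed above lies inside that overlap.

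The next enzymes interconvert and join the isoprene units. IDI1, the isomerase that makes dimethylallyl diphosphate from isopentenyl diphosphate, had 516 counts (16.1 CPM) in the knockout and 978 counts (29.1 CPM) in the wild-type library. Its level in the knockout library was 55.5% of the wild-type level (log2 ratio -0.85, interval -1.01 to -0.69). FDPS, which condenses the units to farnesyl diphosphate, had 2875 counts (89.9 CPM) in the knockout and 3607 counts (107 CPM) in the wild-type library. FDPS had the smallest difference of the 8 lower genes, at 83.9% of the wild-type level (log2 ratio -0.25, interval -0.32 to -0.18), and 19.9% of expressed genes had a ratio at least as low. Its 8 named pseudogenes in the table summed to 8 counts in the knockout and 9 in the wild-type library, which is small beside the counts of FDPS.

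The last steps commit farnesyl diphosphate to sterols. FDFT1, squalene synthase, had 1909 counts (59.7 CPM) in the knockout and 2728 counts (81.1 CPM) in the wild-type library, a log2 ratio of -0.44 (interval -0.53 to -0.36). SQLE, squalene epoxidase, a rate-limiting enzyme of the later route, had 697 counts (21.8 CPM) in the knockout and 1424 counts (42.3 CPM) in the wild-type library. SQLE showed the largest difference of the 9, at 51.5% of the wild-type level (1.94-fold lower, log2 ratio -0.96, interval -1.09 to -0.83), and 1.87% of expressed genes had a ratio at least as low. The 3 expressed protein-coding genes nearest to SQLE in the levels of both libraries were NARF, PTPRU and ALDOC, with log2 ratios of -0.84, -0.83 and -0.82. Over 2 libraries this likeness says only that levels and ratio were alike.

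**Figure D2:**
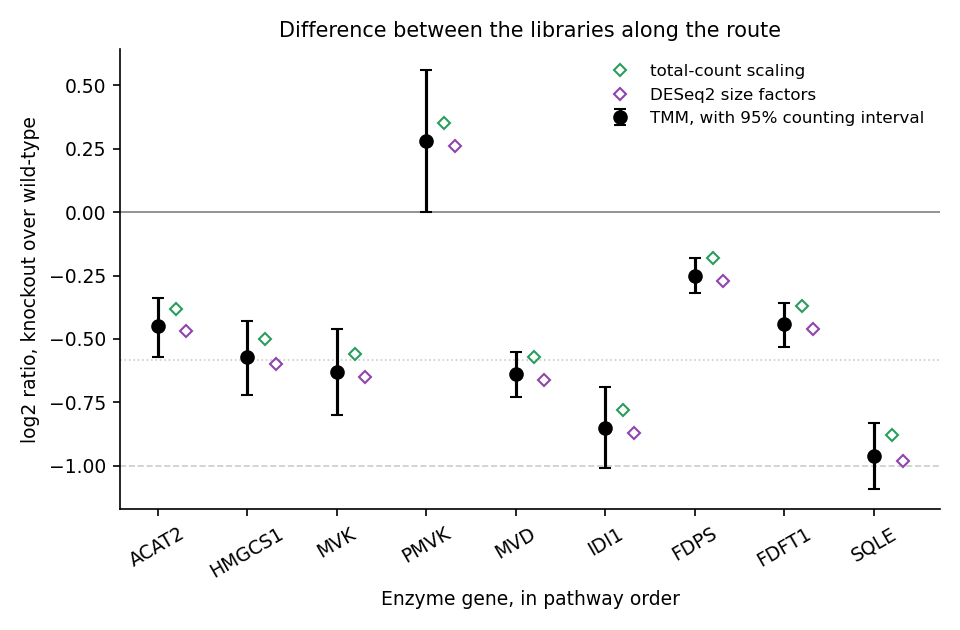
Log2 ratio of each enzyme gene, knockout over wild-type library, in pathway order, with TMM scaling (filled points, bars are 95% counting intervals), total-count scaling and DESeq2 size factors (open diamonds). The dotted line marks 1.5-fold and the dashed line 2-fold lower; IDI1 and SQLE lie lowest and PMVK lies above 0 under each of the 3 scalings.

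The size of the difference did not change evenly along the route. As sums of counts, the 2 condensing enzymes stood at 70.7% of the wild-type level, the 3 enzymes from MVK to MVD at 67.4%, IDI1 and FDPS together at 77.8%, and FDFT1 and SQLE together at 66.0%. Within the last 2 groups, FDPS and FDFT1 had smaller differences than IDI1 and SQLE. The group from MVK to MVD held PMVK, which lay above 0. Without FDPS, the most abundant member, the sum of the other 8 was 66.6% of the wild-type level.

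The ratio of 1 member to another within the libraries does not depend on how the libraries are scaled. Of the 36 pairs of members, 27 had a difference of log2 ratios whose exact conditional interval excluded 0. How many pairs of other expressed genes would do so was not computed, so the count does not set this pathway apart. Among the 27 were all 8 pairs with PMVK, all 8 with FDPS and 7 of 8 with SQLE. SQLE and IDI1, the 2 lowest, differed by only 0.11 (IDI1 minus SQLE, interval -0.10 to 0.31), which was not detectable at this depth. ACAT2 and FDFT1 differed by -0.01 (ACAT2 minus FDFT1, interval -0.16 to 0.13), and MVK and MVD by 0.01 (MVK minus MVD, interval -0.18 to 0.20). PMVK stood 1.23 above SQLE (interval 0.93 to 1.54) and 0.92 above MVD, the enzyme of the following reaction (interval 0.63 to 1.21).

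**Figure D3:**
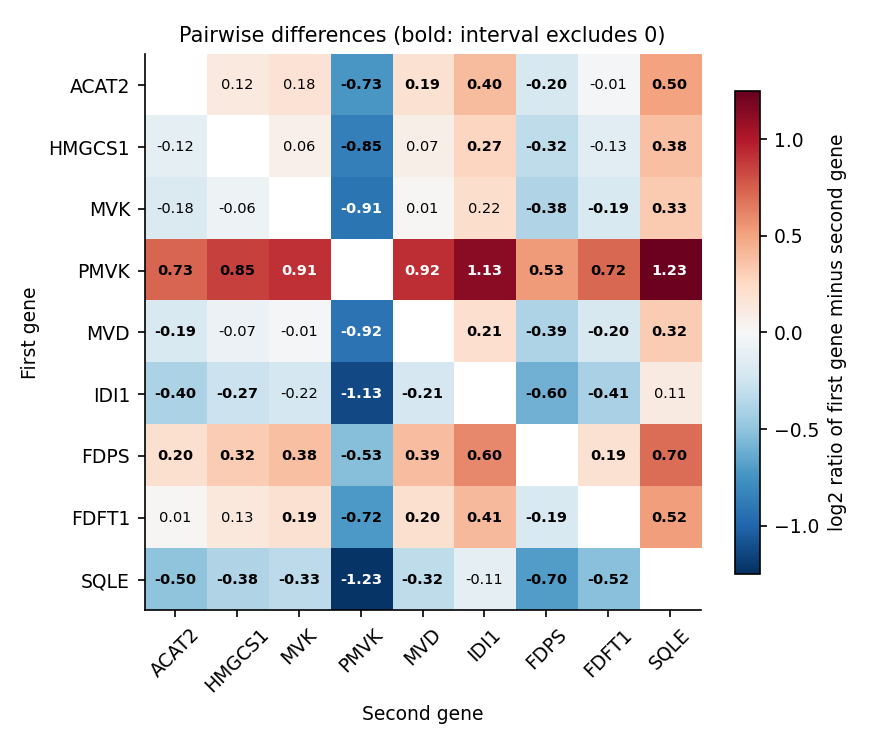
Difference of log2 ratios (knockout over wild-type) between pairs of enzyme genes, the gene of the row minus the gene of the column, on a colour scale. Bold numbers mark pairs whose exact 95% counting interval excludes 0, 27 of 36; the row of PMVK is positive throughout, from 0.53 against FDPS to 1.23 against SQLE.

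The same counts, given as shares of the sum, differed in mix between the 2 libraries. FDPS held 28.95% of the counts of the 9 genes in the knockout library (Clopper-Pearson interval 28.1% to 29.9%) and 24.4% in the wild-type library (23.8% to 25.1%). SQLE held 7.02% in the knockout (6.52% to 7.54%) and 9.65% in the wild-type library (9.18% to 10.1%). PMVK held 2.37% in the knockout (2.08% to 2.69%) and 1.38% in the wild-type library, where the interval ended at 1.58%.

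Levels of different genes were compared as CPM per kilobase of the longest protein-coding transcript. FDPS was the highest of the 9 in both libraries, with 60.8 CPM per kilobase in the knockout and 72.5 in the wild-type library, followed by MVD (27.9 and 43.5) and FDFT1 (22.4 and 30.5). ACAT2 stood at 9.77 CPM per kilobase in the knockout and 13.4 in the wild-type library, and SQLE at 7.36 in the knockout and 14.3 in the wild-type library, where the intervals of this pair overlapped. At the low end, the order differed between the libraries. IDI1 was the lowest in the knockout library, at 4.79 CPM per kilobase (interval 4.38 to 5.22), and stood at 8.63 in the wild-type library (8.09 to 9.18). PMVK was the lowest in the wild-type library, at 4.74 CPM per kilobase (4.11 to 5.43), and stood at 5.74 in the knockout library (5.03 to 6.52). In the knockout library the intervals of PMVK, HMGCS1, MVK and IDI1 overlapped, and in the wild-type library those of IDI1, MVK and HMGCS1 did. With merged exon length in place of transcript length, FDPS was still the highest, at 24.2 CPM per kilobase in the knockout and 28.8 in the wild-type library. FDFT1 (11.5) then stood above MVD (10.8) in the knockout library, and MVK was the lowest in both libraries.

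The chromosome neighbourhoods of these genes had medians near 0. For each member, the 20 expressed protein-coding genes with the nearest starts on its chromosome in GENCODE 29 were taken. The farthest of the 20 lay from 0.325 megabases (FDPS) to 6.71 megabases (IDI1) away. The median log2 ratio of the 20 lay between -0.10 (around MVK) and 0.13 (around MVD). Around the 8 lower members, between 0 (IDI1 and SQLE) and 3 (ACAT2) of the 20 neighbours had a ratio at least as low as the member itself. IDI1 and SQLE are the 2 lowest members, and few genes anywhere were as low, 2.48% of expressed genes for IDI1 and 1.87% for SQLE. PMVK and FDPS lie close together on chromosome 1, where their neighbours had medians of 0.02 and -0.02, and still they differed in direction. After each neighbourhood median was subtracted, an alternative chosen after the data had been seen, the median of the 9 was -0.53.

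RefSeq promoters were used for 6 of the 9 members (not ACAT2, FDFT1 or SQLE), and the motifs were searched on both strands in 250 bases before each of the 9 starts used for these 6 genes. The CCAAT box was found upstream of 5 of these 6 genes, HMGCS1, MVK, MVD, IDI1 and FDPS, each of which was lower in the knockout library, and not upstream of PMVK. Among 9266 expressed protein-coding genes, 41.9% had the box upstream of at least 1 start. By start, 6 of the 9 promoters held it, against 33.0% of the 13588 promoters of expressed protein-coding genes. The promoters without it were that of PMVK and 2 of the further starts of HMGCS1 and IDI1, so the box was not before every start of the lower genes. At the start nearest to the annotated gene start, these 5 genes held 2 to 5 copies each. At least 2 copies were found in 11.4% of the 13588 promoters, of which 33.0% held the box at all. The 5 genes were picked for holding the box, so their copies cannot be set against the 11.4%. Copies were counted after the matches had been seen. The core of the cAMP response element, TGACG, was found upstream of 3 of the 6 genes, MVD, IDI1 and FDPS (36.5% of expressed protein-coding genes), and in 5 of the 9 promoters (28.0% of promoters). The full element TGACGTCA was upstream of none (3.52% of genes). The Sp1 box GGGCGG was found upstream of all 6 (77.5% of genes). The sterol response element was searched as TCACNCCAC, with 1 free base, and was in none of these windows (1.2% of genes), which says only that these letters were absent there. The longer classical form of that element was in none of them either (0.0324% of genes). The TGACG search includes every TGACGTCA. A match is not a binding site, and the promoters of 6 genes chosen with the ratios known cannot link a motif to a ratio.

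**Figure D4:**
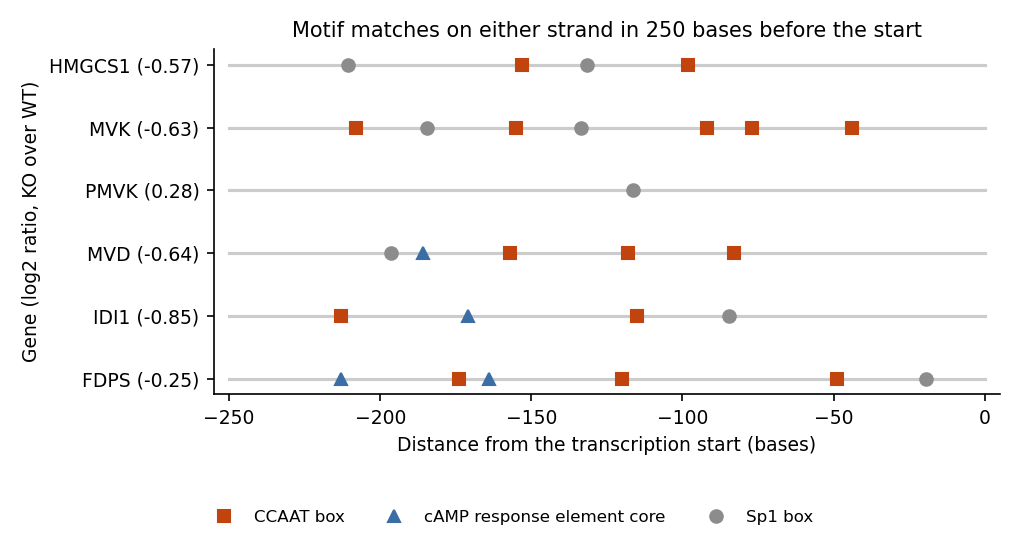
Motif matches on either strand in the 250 bases before 1 transcription start of each of 6 enzyme genes, the one nearest to the annotated gene start, with each gene's log2 ratio (knockout over wild-type) in brackets; the horizontal axis is the distance from the start in bases. Squares are CCAAT boxes, triangles cAMP response element cores and circles Sp1 boxes; PMVK, the gene above 0, has 1 Sp1 box and no other match.

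The rest of the sterol and lipid genes were compared by list. Of 11 enzymes that act after SQLE, 10 were lower with an interval excluding no difference. Their median log2 ratio was -0.46, and 1 (9.09%) was called lower at 1.5-fold. Over all expressed genes these shares were 25.5% and 5.50%, so the count at 1.5-fold was near that over all genes. DHCR7, a reductase of the last steps (-0.71), and MSMO1, a methyl sterol oxidase (-0.57), lay farthest from 0, and TM7SF2, a sterol reductase, was the exception at 0.29 (1013 counts in the knockout and 873 in the wild-type library), named after its value was seen. The 2 stretches of the pathway thus each held 1 gene with more counts in the knockout library. Of 9 expressed genes of SREBP regulation and sterol uptake, 3 (33.3%, against 5.50% of all expressed genes) were called lower at 1.5-fold and none higher, with a median of -0.41. The list was split, with 5 genes below 0 and 4 above, and of those above 0 the proteases MBTPS1 (0.14, interval 0.08 to 0.21) and MBTPS2 (0.56, interval 0.21 to 0.92), which cut SREBP free, had intervals that excluded no difference. INSIG1, which holds the SREBP complex in the endoplasmic reticulum (-1.30), and STARD4, a sterol carrier (-1.14), were also 2-fold lower. SREBF2, which encodes SREBP2, had 2201 counts in the knockout and 3562 in the wild-type library (log2 ratio -0.62, interval -0.70 to -0.54); SREBF2 and the 2 proteases are named outside the naming rule, after their values were seen. For fatty acid synthesis 10 genes were listed, of which 9 were matched by name, and these 9 were all expressed. Of the 9, 3 were likewise called lower at 1.5-fold and none higher (median -0.32). SCD, a desaturase (-1.16), and FASN, fatty acid synthase (-1.05), were 2-fold lower. These lists share the libraries with the 9 enzymes and were chosen with earlier results known, and no difference between lists was tested.

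**Figure D5:**
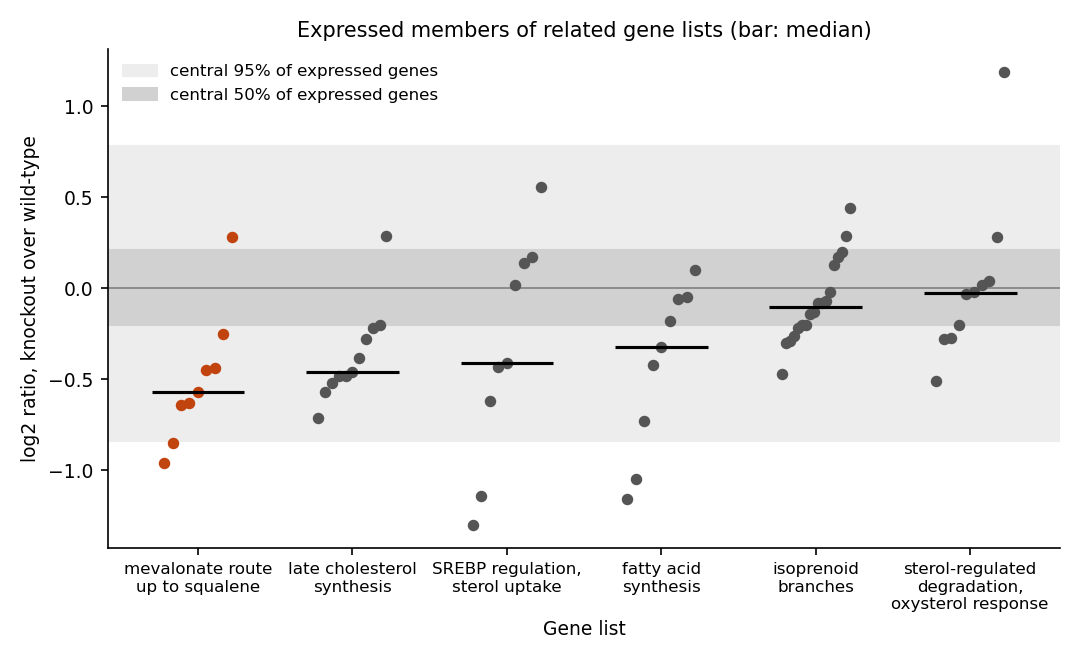
Log2 ratio (knockout over wild-type) of every matched and expressed gene in 6 lists, sorted within each list from low to high. The bar is the list's median, and the grey bands hold the central 50% and 95% of 12886 expressed genes. The 9 enzymes from ACAT2 to SQLE, in red, have a median of -0.57, and 8 of them lie below the central 50%, which ends at -0.20.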

How the data were processed

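RNA was depleted of ribosomal RNA and made into strand-specific paired-end libraries, per the labels' protocols, 1 from CREB1 knockout and 1 from CREB1 wild-type HCT116 cells. The deposited values are expected counts per gene, estimated by the authors and not scaled between libraries. The submitters' processing notes name RSEM 1.2.26, STAR 2.4.2a, cutadapt 2.0 and the build hg19. RSEM divides reads shared between genes, which leaves fractional values; those of the 9 members were whole, whereas 16.1% of expressed genes had a fraction. No source used here gives the annotation release, strand setting or filters.

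Names, gene positions and transcript lengths came from GENCODE 29 (GRCh38), matched by identifier without version (52338 of 57820 identifiers, 90.5%). The identifiers without a match held 35.2% of the counts in the knockout and 37.0% in the wild-type library. They stayed in the totals and in the scaling. Counts were rounded and scaled by TMM in edgeR 4.0.16 (R 4.3.3), and log2 ratios of CPM, knockout over wild-type, used a prior count of 0.5. Intervals are Clopper-Pearson (ratios, shares), exact Poisson (levels) and exact conditional (pairs), at 95%, in scipy 1.17.1. Read pairs count in them as independent molecules, and the intervals cover counting error only. A call needed the stated fold and an interval excluding no difference. Genes were named by rule: the members, up to 3 genes per list called at 2-fold or otherwise the 2 farthest from 0, isozymes, CREB1, the 3 genes nearest to the member farthest from 0, and genes overlapping a member. A few genes within this rule are not reported here. The members and lists were chosen with earlier results of these data known. The interval and calling code was tested on simulated data. Alternatives were other scalings (total count, DESeq2 1.42.0 size factors, upper quartile, the total without the 5 highest genes), another prior count, no rounding, filters, lengths, and a correction for GC content and length.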

Additional observations from a re-analysis of the deposited data

How the results depend on the processing

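The median log2 ratio of the 9 members kept its sign and lay within the counting interval of its middle member under each alternative run, from -0.60 to -0.50 over the scalings, -0.60 to -0.51 with each member left out in turn, -0.56 after the GC and length correction and -0.50 as a mean. The other prior count and the lack of rounding could hardly move the members, whose counts were whole and at least 204. Under each of the 7 alternatives of scaling, prior count and rounding, 8 members lay below 0 and none was 2-fold lower. Of the 9, 8 kept the side of their interval. PMVK is the other: its log2 ratio was between 0.26 and 0.35, and its interval included no difference with DESeq2 size factors, upper-quartile scaling or scaling from expressed genes alone. The count of members lower at 1.5-fold was 5 with DESeq2 size factors and 2 with total-count scaling, against 4; total-count scaling raises all ratios alike, and the median of all expressed genes was then 0.08 in place of 0.01. The share of genes lower at 2-fold was 2.73% with no filter (635 genes) and 0.619% at a mean CPM of at least 5 (62 genes), against 1.64% (211 genes). Those lower at 1.5-fold numbered 1150 and 344, against 709, but as shares of the genes kept they were 4.95% and 3.44%, against 5.50%; those higher at 2-fold numbered 451 and 75, against 165, and those higher at 1.5-fold were 373 at a mean CPM of at least 5, against 677. No paired analysis was possible because each group has 1 library, which also leaves no replicate to omit. Depth limits PMVK most, with 235 counts in the knockout and 204 in the wild-type library.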

Other observations

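Farnesyl diphosphate also leaves the sterol route, and the genes that use it elsewhere were compared as a list. Of 18 expressed genes of protein prenylation, dolichol, ubiquinone and related isoprenoid branches, none was 1.5-fold lower or higher, as 5.50% and 5.25% of all expressed genes were, and their median log2 ratio was -0.11. An interval wholly below 0 was found for 8 of the 18 (44.4%, against 25.5% of all expressed genes). COQ2, which attaches the isoprene tail of ubiquinone, was farthest below 0 (-0.47, 232 counts in the knockout and 338 in the wild-type library). NUS1, a subunit of the dolichol-making prenyltransferase, was farthest above 0 (0.44, 486 counts in the knockout and 378 in the wild-type library). GGPS1, which extends farnesyl to geranylgeranyl diphosphate, had 372 counts in the knockout and 482 in the wild-type library, a log2 ratio of -0.30 (interval -0.50 to -0.10), and is named after its value was seen.

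ACAT1, the mitochondrial thiolase, had 1294 counts in the knockout and 1743 in the wild-type library (log2 ratio -0.36, interval -0.46 to -0.25). IDI2, a copy of IDI1, had 3 in the knockout and 1 in the wild-type library. Of 10 expressed genes of sterol-regulated protein degradation and the oxysterol response, 1 was called (1.28% of all expressed genes were 2-fold higher), ABCA1, a cholesterol exporter, which was 2.28-fold higher (219 counts in the knockout and 101 in the wild-type library, log2 ratio 1.19, interval 0.84 to 1.54). MARCH6, the ubiquitin ligase known to act on squalene epoxidase, had a log2 ratio of -0.02 (1387 counts in the knockout and 1485 in the wild-type library); it too is named after its value was seen.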
